A study of Mus musculus with 40 samples.

Results

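The nuclear-encoded genes of the mitochondrial respiratory chain were followed across 10 sorted cell populations of the mouse colon and blood. The set took in every protein-coding gene whose mouse symbol begins with Nduf followed by a, b, c, s or v and a number (complex I), Sdha to Sdhd (complex II), Uqcr (complex III), Cox4i to Cox8 (complex IV) or Atp5 (complex V), a rule on symbols alone. This gave 84 of the 45706 genes in the tables, with 37 of complex I, 4 of complex II, 8 of complex III, 18 of complex IV and 17 of complex V.

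RNA was sequenced from 40 libraries, 4 in each of 10 groups. Tumor-bearing mice carried Cdx2CreERT2 - Apc fl/fl and received Tamoxifen at 25 mg/kg at an age of 8 to 10 weeks. The colon promoter Cdx2 drives the inducible recombinase that deletes the floxed tumor suppressor Apc in colon epithelium, so epithelial cells are the intended site of recombination. From these mice came tumor neutrophils, tumor monocytes, tumor epithelial cells, tumor stromal cells, blood neutrophils and blood monocytes. From healthy C57Bl6 mice, with no transgene or agent in the labels, came healthy colon epithelial cells, healthy colon stromal cells, blood neutrophils and blood monocytes. The strain labels of the tumor-bearing mice begin at C57Bl6/Sv129 and their number counts up from library to library, so the exact background is uncertain, and strain, transgene, Tamoxifen and tumor cannot be told apart in any comparison of tumor-bearing with healthy mice. By the study's gates, epithelial cells were EpCAM+ CD45-, stromal cells EpCAM- CD45-, neutrophils CD45+ CD11b+ MHCII- Ly6G+ Ly6C low and monocytes CD45+ CD11b+ MHCII- Ly6G- Ly6C high. Tissue cells were released by enzyme digestion, and blood cells were taken after red cell lysis. Tissue and isolation therefore cannot be told apart in any comparison of tumor with blood cells. The titles of 4 libraries name a pair of animals each, some animal numbers recur across cell types, and p-values measure the spread between libraries.

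The respiratory chain sits in the inner mitochondrial membrane. Complexes I and II take electrons from NADH and succinate and pass them through ubiquinone to complex III, which hands them through cytochrome c to complex IV, the oxidase that reduces oxygen, and complexes I, III and IV pump protons whose return drives ATP synthesis by complex V. Complex II is encoded wholly in the nucleus and doubles as the succinate dehydrogenase of the citric acid cycle, whereas the other complexes combine nuclear subunits with subunits encoded in mitochondrial DNA. Absorptive colon epithelium is known as an oxidative tissue that burns butyrate from the gut bacteria, and circulating neutrophils are known for few mitochondria and a reliance on glycolysis.

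Promoters of these genes are known to carry sites for NRF1, for ETS factors such as GABPA, and for YY1. To show such a promoter beside one without these letters, the 150 bases before the RefSeq start (GRCm38.p6) are given for 4 of the 5 genes with the largest called falls in tumor epithelium. Capitals mark the NRF1 letters GCATGCGC, which overlap on both strands in Atp5k, and the ETS letters CCGGAAG, which lie on the opposite strand in Cox6a1. Atp5k lies at chr5:108434400-108434549 on the minus strand, Cox6a1 at chr5:115348959-115349108 on the minus strand, Cox5a at chr9:57521082-57521231 on the plus strand and Cox7b at chrX:106015550-106015699 on the plus strand.
Atp5k: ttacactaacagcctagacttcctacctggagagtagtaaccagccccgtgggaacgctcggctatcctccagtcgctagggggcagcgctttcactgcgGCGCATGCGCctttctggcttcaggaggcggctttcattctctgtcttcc
Cox6a1: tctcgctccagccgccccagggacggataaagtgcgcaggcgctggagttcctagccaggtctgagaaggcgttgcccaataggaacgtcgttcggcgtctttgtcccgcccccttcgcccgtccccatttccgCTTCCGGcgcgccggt
Cox5a: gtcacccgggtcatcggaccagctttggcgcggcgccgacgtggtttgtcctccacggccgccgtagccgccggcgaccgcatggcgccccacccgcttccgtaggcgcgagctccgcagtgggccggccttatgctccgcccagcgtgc
Cox7b: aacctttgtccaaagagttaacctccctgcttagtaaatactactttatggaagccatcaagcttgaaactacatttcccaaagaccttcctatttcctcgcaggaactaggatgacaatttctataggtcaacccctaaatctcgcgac

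Promoters could be matched for 68 of the 84 genes. In 300-base windows searched on both strands, the NRF1 letters stood in a promoter of 10 of these 68 genes (14.7%). They did so for 3.05% of all 27025 genes with a promoter. The ETS letters stood in promoters of 16 genes (23.5%) against 9.93% of all genes, and the YY1 letters AAGATGGC in those of 10 (14.7%) against 3.19%. At least 1 of the 3 motifs was present for 30 of the 68 genes (44.1%) and for 14.9% of all genes. Among the genes that fell in tumor epithelium (below) 5 of 33 had the NRF1 letters, against 5 of 35 among the other matched genes, which were not called there. The ETS letters were found for 10 of 33 against 6 of 35, and the YY1 letters for 6 of 33 against 4 of 35.

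Counts on genes totaled 10717873 to 38002939 per library, and mitochondrial genes took 5.34% to 83.9% of them. The share in healthy colon epithelial cells was 48.6% to 83.9%, with 83.9% in replicate 4. Levels are therefore given as normalised RPKM, the counts per kilobase scaled between libraries by TMM factors over nuclear genes. Summed epithelial markers stood at 2641 to 6269 normalised RPKM in healthy epithelial and 793 to 1283 in tumor epithelial cells, against 24.9 to 143 in healthy stromal cells. The tumor stromal libraries went against their label in part. Epithelial markers were present in tumor stromal cells (949 and 607 in replicates 1 and 2, 211 and 158 in replicates 3 and 4) and in tumor neutrophils (834, 471, 226 and 81.5 in replicates 1 to 4, against 5.41 to 12.8 in blood neutrophils of tumor-bearing mice). Fibroblast markers summed to 1230 to 7869 in healthy and 26 to 122 in tumor stromal cells, and endothelial markers to 20.2, 19.7, 589 and 646 in tumor stromal replicates 1 to 4. Tumor stromal replicates 3 and 4 also held neutrophil markers (6614 and 2349, against 24.6 to 159 in healthy stromal cells) and erythroid markers (19108 and 5745, against 15 to 7897). Replicate 2 of the tumor neutrophils was sparse, with 9618 genes at 10 or more counts against 14093 to 16763 in the others. Apc itself was higher in tumor than in healthy epithelial cells (29.4 ± 5.73 and 13.3 ± 6.43 normalised RPKM, SD, n = 4), a total over the gene that does not show whether the floxed part was lost.

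The 84 genes took 0.0695% to 0.742% of the nuclear counts of a library. At least 10 counts in all 40 libraries were reached by 27 of them, and 3 stayed under 10 counts in every library, namely Atp5l and the testis forms Cox8c and Cox7b2. The measured levels within a complex were far from even. Atp5b, the catalytic beta subunit of the ATP synthase, had the highest median over the 40 libraries at 108 normalised RPKM, while Atp5l stood at 0.0178. Whether so low a value for Atp5l reflects its transcript was not tested. Within complex I the medians ran from 34.5 for Ndufb9 to 0.956 for Ndufa4l2, in complex II from 39.4 for the membrane anchor Sdhd to 6 for its partner Sdhc, in complex III from 24.2 for the core protein Uqcrc2 to 0.891 for Uqcrb, and in complex IV from 45 for Cox8a to 0 for the muscle form Cox6a2. Reads of 43 genes could be shared with other genes, since at least 1% of their 50-base stretches recur in other transcripts (41.6% for Atp5o, 31.6% for Ndufb6, 15.6% for Ndufb9, 9.16% for Cox6a1, 9.11% for Cox5a), and 37 overlap another gene on the genome. The genes described most below include Sdhd (ENSMUSG00000000171, 9:50596357-50603812 on the minus strand of GRCm38, no overlapping gene), Cox4i2 (ENSMUSG00000009876, 2:152754173-152765037, plus strand, no overlapping gene) and Ndufc2 (ENSMUSG00000030647, 7:97400003-97407802, plus strand, overlapped on the same strand by Gm16053). Values of genes with shared or overlapping sequence are uncertain to that extent, because the sources used here do not give the treatment of such reads or of strand.

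**Figure D1:**
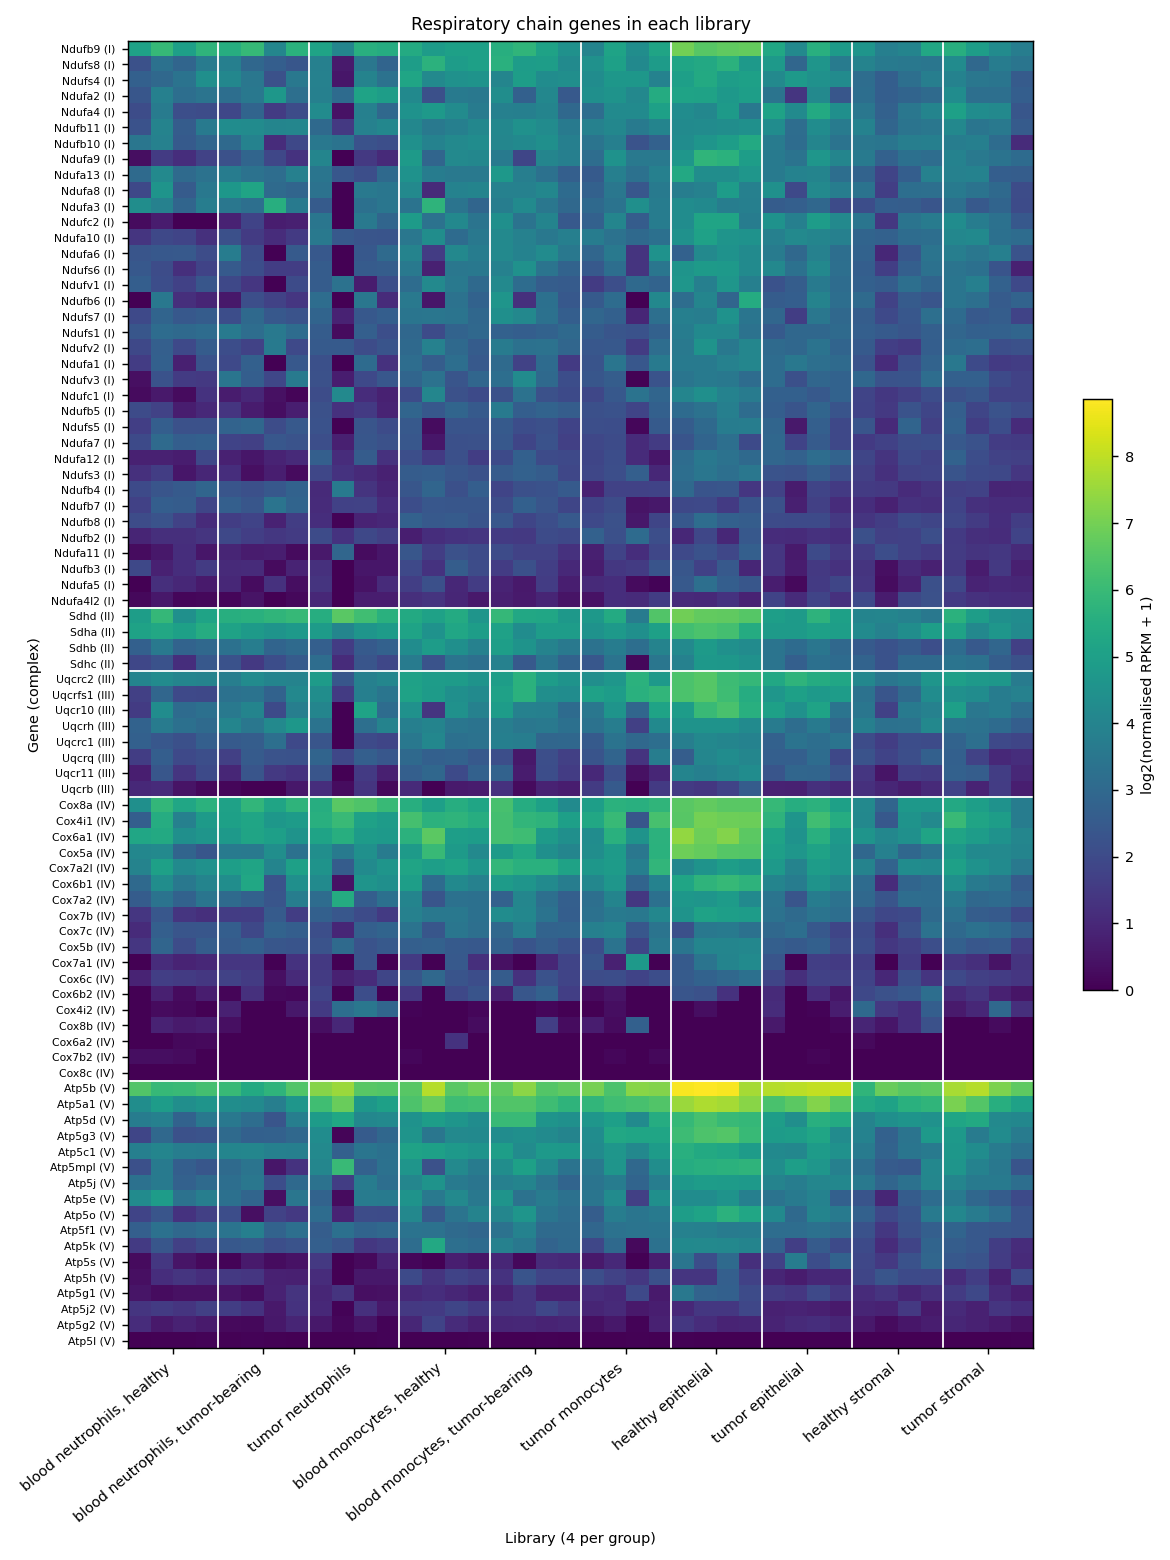
Heat map of log2(normalised RPKM + 1) of the respiratory chain genes (grouped by complex I to V, ordered by mean) in each of the 40 libraries (columns, 4 per group, white lines between groups). The 4 healthy epithelial libraries form the brightest block, Atp5b is the brightest gene, and replicate 2 of the tumor neutrophils shows gaps across complexes.

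Healthy colon epithelial cells held the most transcripts of the respiratory chain. The median over the 84 genes was 16.6 ± 2.03 normalised RPKM in these cells (SD of the library medians, n = 4), followed by 9.31 ± 3 and 8.43 ± 1.62 in blood monocytes of tumor-bearing and healthy mice, 7.77 ± 1.22 in tumor epithelial cells, 7.1 ± 2.83 in tumor monocytes, 5.91 ± 2.4 in tumor stromal and 4.76 ± 1.96 in healthy stromal cells. The 3 neutrophil groups came last, with 4.13 ± 0.779 in blood of tumor-bearing mice, 3.76 ± 1.12 in blood of healthy mice and 3.72 ± 1.85 in tumors. Only the healthy epithelial cells were separated from every other group without overlap (library medians of 14.5 to 19.2, against at most 12.9 elsewhere), and neighbours further down the order overlapped. Of the 80 genes with a mean of at least 1 in some group, 63 were highest in healthy epithelial cells, and 22, 20 and 18 were lowest in healthy stromal cells and in blood neutrophils of tumor-bearing and healthy mice. In sorted populations, as in any bulk RNA, fewer cells of a type and less of an RNA per cell cannot be told apart.

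This comparison asked how the respiratory chain differed between tumor and healthy colon epithelium. Of 78 genes that passed the filter on low counts, 43 fell and 0 rose in tumor epithelial cells (edgeR's quasi-likelihood test, Benjamini-Hochberg adjusted p-value under 0.05). That is 55.1% of the genes tested, whereas over all 16085 genes 12% fell and 10.6% rose. The median log2 fold change was -1.17, against -0.01 over all genes, 75 of the 78 estimates were negative, and in 51 genes all 4 tumor libraries lay below all 4 healthy ones. With the further demand of an absolute log2 fold change above 1.5, 15 of the 78 genes were called. All 15 were lower in tumor cells. Over all genes 15.4% were called in either direction, a share that pools rises with falls and is not a like measure for these falls. Every complex took part, with 14 of 37 genes tested falling in complex I, 4 of 4 in complex II, 6 of 8 in complex III, 9 of 13 in complex IV and 10 of 16 in complex V.

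Cytochrome c oxidase gave several of the largest falls. Cox6a1, the non-muscle form of a regulatory subunit, stood at 169, 118, 148 and 97.4 normalised RPKM in healthy and at 34.2, 21.7, 47.4 and 25.8 in tumor epithelial cells (replicates 1 to 4), a log2 fold change of -2.07 (SE 0.29, adjusted p-value of edgeR 0.000604). Cox5a, which wraps the core on the matrix side, fell from 120, 108, 90.5 and 87.9 to 30.9, 24.3, 33 and 23.8 (-1.88, SE 0.24, adjusted p = 0.000375 in edgeR). Cox7b, a small transmembrane subunit, fell from 22.6, 33.4, 30.1 and 28.8 to 9.13, 7.41, 9.65 and 8.13 (-1.76, SE 0.24, adjusted p = 0.000595 in edgeR). In all 3 the groups did not overlap, and the lowest healthy library was more than 2 times the highest tumor library. The promoters of Cox5a and Cox7b are those above without any of the 3 motifs.

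Among the other complexes, Atp5k, the small membrane subunit e of the ATP synthase, went from 17.3, 17, 16.7 and 14.9 in healthy to 5.69, 2.16, 4.78 and 2.99 normalised RPKM in tumor epithelial cells, a log2 fold change of -2.09 (SE 0.42, adjusted p-value of edgeR 0.00509). Ndufb9, an accessory subunit of the membrane arm of complex I, went from 125, 92.2, 103 and 107 to 37.8, 17, 47.5 and 27.7 (-1.74, SE 0.31, adjusted p = 0.00241 in edgeR). Ndufa2, an accessory subunit of the matrix arm, went from 34.5, 33.2, 25.7 and 30.3 to 9.55, 1.56, 17 and 4.22 (-1.95, SE 0.61, adjusted p = 0.0419 in edgeR). The tumor libraries of Ndufa2 spread more than 10-fold, and its call was lost when any of 6 of the 8 libraries was left out (tumor replicates 1 and 4 and each healthy replicate; adjusted p of 0.0639 to 0.113 in edgeR).

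All 4 genes of complex II fell. Their summed level was 222, 239, 221 and 172 normalised RPKM in healthy and 76.6, 68.3, 102 and 76 in tumor epithelial cells, without overlap. The log2 fold changes were -1.60 for Sdhd (SE 0.22, adjusted p-value of edgeR 0.000645), -1.47 for Sdhc, -1.29 for the iron-sulfur subunit Sdhb and -1.21 for the flavoprotein Sdha. In the catalytic core of the ATP synthase, Atp5a1 fell by 0.88 on the log2 scale (SE 0.21, adjusted p = 0.0118 in edgeR), and Atp5b stood at 436, 463, 439 and 201 in healthy and 234, 242, 261 and 276 normalised RPKM in tumor cells, where replicate 4 of the healthy cells lay below all tumor libraries and no call was made.

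The 3 genes with positive estimates, Ndufa4, Ndufa4l2 and Atp5s, were not called, and their groups overlapped. Ndufa4, long counted with complex I and now known as a subunit of complex IV, had 18.6, 16.3, 27.4 and 10.8 normalised RPKM in healthy and 33.1, 17.8, 41.1 and 20.1 in tumor epithelial cells (adjusted p = 0.338 in edgeR). Its paralogue Ndufa4l2, a target of hypoxia signaling, had means of 1.07 and 1.9 (adjusted p = 0.314 in edgeR). Cox7a2l, which takes part in joining complexes III and IV, also overlapped between the groups, with means of 23.1 ± 5.46 in healthy and 23.2 ± 6.23 in tumor cells (SD, n = 4 each; log2 fold change -0.02, SE 0.29).

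**Figure D2:**
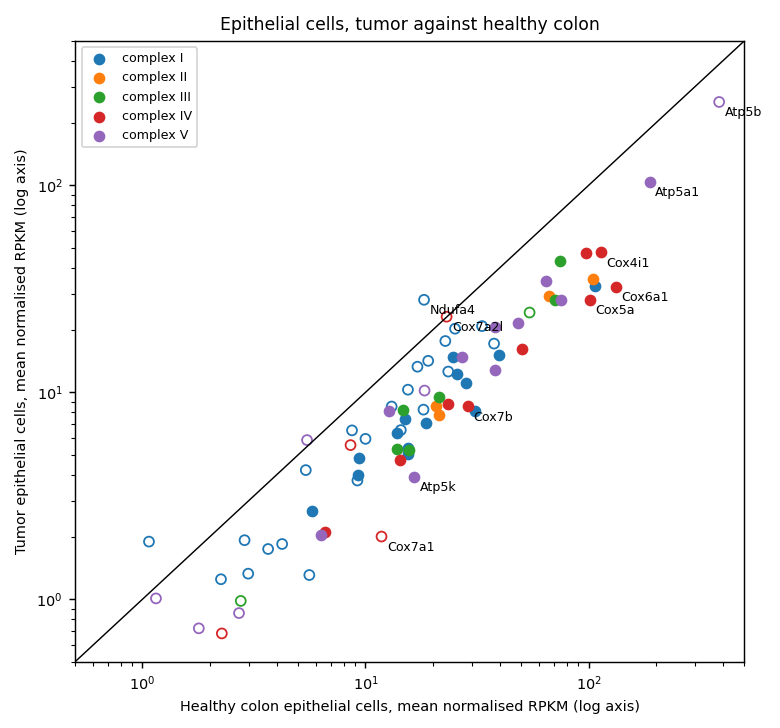
Mean normalised RPKM of each tested gene in healthy (horizontal, log axis) and tumor (vertical, log axis) colon epithelial cells, 4 libraries each, colored by complex, with filled points for called genes and the diagonal marking equal levels. The 43 called genes lie below the diagonal, Cox6a1 at 133 and 32.3 and Cox5a at 101 and 28 among them.

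The fall was spread over transcript lengths. It reached 12 of 27 genes under 1000 bases (median log2 fold change -1.19), 14 of 27 from 1000 to 2000 bases (-1.21) and 17 of 24 of 2000 bases or more (-1.03). Of all genes of these lengths 10.2%, 11.3% and 12.4% fell, with medians of -0.12, -0.13 and 0.03. The called share of respiratory chain genes rose with length, whereas the size of their median change did not. Other values moved along with it. Epithelial markers were lower in tumor epithelial cells (sums above, with all 12 markers at a mean of at least 1 in both groups). Summed monocyte markers were 48.2 to 94.4 against 2.19 to 21.7 in healthy cells, with 3 and 4 of 6 markers at a mean of at least 1. Summed endothelial markers were 17.6 to 25.1 against 0.27 to 9.98, with 2 and 1 of 6 at that level. Neutrophil markers went the other way, at 4.33 to 24 against 47.3 to 161. The part of any of these markers in the result was not tested. Without replicate 4 of the healthy cells, the library with the highest mitochondrial share, 40 genes fell.

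The counts differed with the scale and the test. On the deposited RPKM, which were divided by totals of 2.43 to 5.89 times the counts on genes, limma on log2(RPKM + 1) called 0 of the 78 genes (5 at an unadjusted p under 0.05). On that scale the median of all genes moved to 0.19 and that of the respiratory chain genes was -0.25, and 12% of all genes rose and 3.63% fell. Without replicate 4 of the healthy cells, the same test called 21 genes lower, and on normalised RPKM with all libraries it called 49 (both chosen after the data were seen).

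Companion lists of genes that feed, build or regulate the chain were counted in the same comparison, in which 12% of all genes fell. Of the 17 citric acid cycle enzymes 9 fell and 0 rose, with Suclg2, a subunit of succinyl-CoA ligase, at 53.7 ± 14.6 in healthy and 16.4 ± 2.08 in tumor cells (-1.73, SE 0.23, adjusted p = 0.000421 in edgeR) and Ogdh, of the 2-oxoglutarate dehydrogenase complex, at 52 ± 5.96 and 20.3 ± 1.5. Of 16 genes for ubiquinone synthesis and electron carriers 8 fell and 0 rose, Etfb, a subunit of the electron transfer flavoprotein of fatty acid oxidation, from 43 ± 13.6 to 13 ± 3.62 among them. Of 44 assembly factors 5 fell and 0 rose, a share near that of all genes, with Cox10 and Sco1 (heme and copper insertion into complex IV), Cox15, Coa5 and Tmem186 as the 5. Of 12 regulators of mitochondrial genes 3 fell and 0 rose, namely the coactivator Ppargc1b (11.5 ± 7.54 to 1.63 ± 0.988), the nuclear receptor Esrra (3.54 ± 0.63 to 1.14 ± 0.475) and the RNA-binding protein Lrpprc (8.81 ± 1.77 to 4.92 ± 0.869, all SD, n = 4). Of the 13 subunits encoded in mitochondrial DNA none was called in edgeR, at a median log2 fold change of -1.74. Their summed level was 114445, 54014, 49940 and 421644 normalised RPKM in healthy and 66669, 64235, 23737 and 32411 in tumor cells, so that replicate 4 of the healthy cells stood far above and the other libraries overlapped. Without that replicate the median was -0.63, and with all libraries DESeq2 called 4 of the 13 lower.

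In stromal cells the respiratory chain genes gave no such change. Of 78 genes tested 1 fell and 0 rose in tumor stromal cells, against 5.56% and 3.99% of all genes, 5 had an unadjusted p under 0.05, and the median log2 fold change was 0.44. Without replicates 1 and 2 of the tumor stromal cells, which held the most epithelial markers, 0 genes were called and the median was -0.03. The tumor libraries then left were those with the neutrophil and erythroid markers given above, and the part of any of these markers in the result was not tested. The summed levels of all members in tumor stromal cells, 1374, 1053, 767 and 513 normalised RPKM, followed the order of the epithelial marker sums given above, and healthy stromal cells had 637, 478, 659 and 871. The gene that fell was Cox6b2, the testis form of a complex IV subunit, from 2.81, 3.59, 4.36 and 8.22 to 1.09, 1.54, 0.761 and 0.431 normalised RPKM (-2.21, SE 0.57, adjusted p = 0.0436 in edgeR). The groups of Cox6b2 did not overlap, but the call was lost without any 1 of the 8 libraries.

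An interaction term compared the tumor-associated change of epithelial with that of stromal cells. Of 79 genes 33 had a more negative change in epithelial than in stromal cells and 0 a more positive one, against 7.93% and 7.21% of all genes, with a median difference of -1.62 on the log2 scale. They included 4 of 4 genes of complex II, 8 of 14 of complex IV, 7 of 16 of complex V, 4 of 8 of complex III and 10 of 37 of complex I. The difference was -2.99 for Cox5a (SE 0.42, adjusted p-value of edgeR 0.000314), -2.85 for Uqcr11, -2.78 for Sdhd (SE 0.44, adjusted p = 0.000737 in edgeR), -2.76 for Cox6b1, -2.62 for Ndufa2 and -2.57 for Cox4i1. The count rested in part on single libraries, and was 17 without tumor stromal replicate 1, 19 without tumor epithelial replicate 4, 21 without healthy stromal replicate 2 and 7 without tumor stromal replicates 1 and 2. It was 0 on the deposited RPKM with limma.

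Healthy epithelial and healthy stromal cells differed throughout the chain. Of 79 genes 54 were higher and 1 was lower in epithelial cells, against 15.6% and 22.5% of all genes, with a median log2 fold change of 1.83 (-0.14 over all genes). With an absolute log2 fold change above 1.5 as well, 48 of the 79 were called, against 30.9% of all genes, both in either direction. Higher genes made up 21 of 37 in complex I, 4 of 4 in complex II, 7 of 8 in complex III, 10 of 14 in complex IV and 12 of 16 in complex V. The lower gene was Cox4i2 (below).

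Sdhd stood at 121, 106, 103 and 90.1 normalised RPKM in healthy epithelial and at 15, 15.3, 13.9 and 10.6 in healthy stromal cells, a log2 fold change of 2.92 (SE 0.24, adjusted p-value of edgeR 3.98e-05). Cox5a stood at 6.73, 13.4, 6.81 and 9.4 in stromal cells (epithelial values above; 3.47, SE 0.33, adjusted p = 9.21e-05 in edgeR). Cox4i1, the common form of subunit 4, stood at 92.5, 128, 119 and 116 against 16.6, 4.39, 22.5 and 17.1 (2.91, SE 0.44, adjusted p = 0.000899 in edgeR). None of these groups came near the other. Uqcr11, a small subunit of complex III, had 15.1, 13.1, 15.4 and 18.9 against 1.67, 0.43, 2.1 and 1.92 (3.35, SE 0.53), and Cox6b1, on the intermembrane side of complex IV, had 36.3, 53.1, 59.9 and 52.1 against 7.6, 1.2, 6.46 and 7.52 (3.15, SE 0.53). The largest estimate, 3.49 (SE 1.18, adjusted p = 0.0424 in edgeR), was for the heart and muscle form Cox7a1, at 4.68, 9.73, 15.1 and 17.8 against 2.05, 0, 1.93 and 0, and its call was lost without any 1 of 6 of the 8 libraries. On the deposited RPKM with limma, 11 of the 79 genes were higher and 4 lower, while 6.07% and 35.6% of all genes were.

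Of the companion lists, beside 15.6% of all genes, the higher genes comprised 16 of 17 citric acid cycle enzymes, 8 of 16 electron carrier genes, 11 of 44 assembly factors and 5 of 12 regulators (Ppargc1a, Ppargc1b, Esrra, Tfam and Lrpprc), with 0 lower in each list, and 13 of 13 mitochondrially encoded subunits. The median log2 fold change of the last was 3.73, and they stayed higher in 11 to 13 of 13 under all 15 alternatives run.

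**Figure D3:**
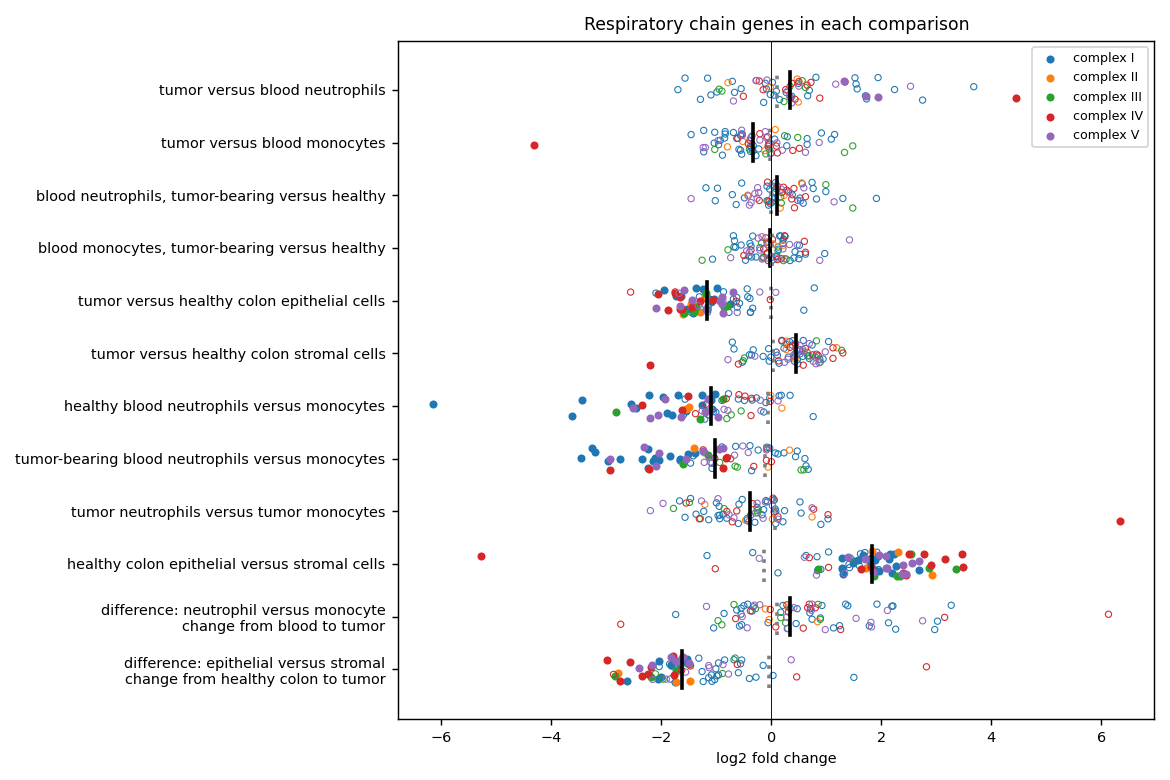
Fitted log2 fold changes of the tested genes (points, colored by complex, filled where called) in the 10 comparisons and the 2 differences of changes, with a black bar at the median of these genes and a dotted grey bar at the median of all genes. The black bars stand at -1.17 for epithelial cells, -1.10 and -1.03 for blood neutrophils against monocytes, 1.83 for healthy epithelial against stromal cells and -1.62 for the epithelial against stromal change, and within 0.44 of 0 in the other comparisons.

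Blood neutrophils had fewer respiratory chain transcripts than blood monocytes, in healthy and tumor-bearing mice alike. In healthy mice 32 of 73 genes were lower and 0 higher in neutrophils (43.8%), against 26.6% lower and 24.2% higher among all genes. In tumor-bearing mice 31 of 73 were lower and 0 higher (42.5%), against 27.7% and 23.5%. The medians were -1.10 and -1.03 (-0.07 and -0.12 over all genes). With an absolute log2 fold change above 1.5 as well, 21 of 73 and 22 of 73 genes were called, all lower in neutrophils. Over all genes 37.1% and 38% were called at this threshold in either direction. Those shares pool rises with falls, so they cannot show whether an excess of lower genes remained. In both comparisons 24 genes were lower, 75% of those in healthy and 77.4% of those in tumor-bearing mice. On the deposited RPKM with limma, calls over all genes shifted to 42.1% lower and 14.5% higher in healthy and 43% and 13.9% in tumor-bearing mice, and 57 and 50 respiratory chain genes were called. Summed erythroid markers ranged widely in both cell types (38.4 to 8811 in blood neutrophils and 6.13 to 3222 in blood monocytes), as did platelet markers (15.4 to 1620 and 3.66 to 506), and their part was not tested.

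Complex I held the lowest estimates in both comparisons. Ndufc2, a subunit of its membrane arm, had 0.186, 0.58, 0 and 0 normalised RPKM in neutrophils and 28, 9.19, 16.4 and 9.5 in monocytes of healthy mice (adjusted p = 0.000499 in edgeR), with at most 6.497 counts in any of these neutrophil libraries. In tumor-bearing mice it had 0.807, 2.44, 0.633 and 0.697 in neutrophils and 20.1, 9.39, 15.1 and 4.53 in monocytes (-3.47, SE 0.67, adjusted p = 0.00158 in edgeR). Neutrophils and monocytes did not overlap in either. Ndufa10, an accessory subunit of the membrane arm, had 1.56, 2.8, 2.56 and 1.36 in neutrophils and 10.4, 19.3, 7.48 and 10.7 in monocytes of healthy mice (-2.56, SE 0.39, adjusted p = 0.000549 in edgeR). In tumor-bearing mice it had 3.47, 1.91, 1.19 and 1.82 against 16.8, 13.9, 10.8 and 13.1 (-2.76, SE 0.37, adjusted p = 0.000168 in edgeR). These were again apart in every library.

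Ndufa9 (-3.62, SE 0.66) and Ndufc1 (-3.44, SE 0.84) were lower in neutrophils of healthy mice, as were the Rieske iron-sulfur protein Uqcrfs1 of complex III (2.17, 6.65, 2.87 and 2.81 against 33.5, 27.8, 20.3 and 17.9 normalised RPKM; -2.82, SE 0.43, adjusted p = 0.000525 in edgeR) and Atp5k (1.82, 4.14, 2.17 and 3.09 against 8.06, 40.1, 8.48 and 7.49; -2.52, SE 0.66, adjusted p = 0.01 in edgeR). In tumor-bearing mice the lowest estimates besides Ndufc2 and Ndufa10, among called genes with a mean of at least 5 in either group, were those of Ndufb5 (-3.20, SE 0.55), Atp5o (-2.93, SE 0.65), Ndufb6 (-2.35, SE 0.89, adjusted p = 0.0455 in edgeR) and Atp5d (-2.32, SE 0.47). Atp5o and Ndufb6 are the genes with the most shared sequence, and the call of Ndufb6 was lost without any of 6 of the 8 libraries.

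Some abundant subunits did not follow. Sdhd had 29.2, 58.1, 20.8 and 34.4 normalised RPKM in neutrophils and 40.3, 32.5, 41.2 and 23.7 in monocytes of healthy mice (log2 fold change -0.01, SE 0.34). Cox8a had means of 41 ± 16.4 and 39.7 ± 7.25 (-0.02, SE 0.35), Sdha of 36.8 ± 5.5 and 30.9 ± 6.65 (0.19, SE 0.21) and Ndufb9 of 44.4 ± 14.6 and 33.5 ± 5.76 (0.34, SE 0.30, all SD, n = 4). Within complex II, Sdhb (7.43 ± 2.46 against 20.4 ± 6.13 normalised RPKM) and Sdhc (3.02 ± 1.37 against 8.47 ± 3.38) were lower in neutrophils (adjusted p of 0.00334 and 0.0201 in edgeR).

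Of 16 citric acid cycle enzymes 12 were lower in neutrophils and 1, the malate dehydrogenase Mdh2, was higher in healthy mice, and 9 and 1 in tumor-bearing mice. Assembly factors moved in both directions, with 10 of 37 lower and 4 higher in healthy and 11 of 35 lower and 6 higher in tumor-bearing mice, beside the 26.6% lower and 24.2% higher and the 27.7% and 23.5% of all genes. Cox17, the copper chaperone of complex IV, was among the higher ones (2.13, SE 0.34, adjusted p-value of edgeR 0.000694 in healthy mice). Electron carriers were lower in 7 and 5 of 16 and higher in 1 and 1, the 5 of 16 being near the share of all genes. Regulators were lower in 6 and 5 of 11 and higher in 0 and 2. The mitochondrially encoded subunits were lower in 12 of 13 and 13 of 13, with medians of -3.73 and -2.92 beside the -1.10 and -1.03 of the nuclear genes.

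Between tumor-bearing and healthy mice, no difference in the respiratory chain genes of blood cells was detected by edgeR at this depth. In blood neutrophils 0 of 65 genes were called in edgeR, with 6 at an unadjusted p under 0.05 and 3 higher by DESeq2, against 3.59% higher and 2.93% lower among all genes, and the median was 0.10. In blood monocytes 0 of 76 genes were called in edgeR, with 4 at an unadjusted p under 0.05 and 0 by DESeq2, against 0.0914% and 0.124% of all genes, and the median was -0.03.

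A few transcripts of the chain were higher in tumor than in blood neutrophils of tumor-bearing mice. Of 68 genes tested 4 were higher (5.88%) and 0 lower, both smaller shares than the 12.5% and 5.39% of all genes. The median log2 fold change was 0.34 (0.11 over all genes), and 10 genes had an unadjusted p under 0.05. The library medians over the 84 genes were lower in tumor, with overlap, at 3.72 ± 1.85 against 4.13 ± 0.779 normalised RPKM (SD, n = 4). Of the 4 genes 3 belong to the F1 part of the ATP synthase. Atp5a1, the alpha subunit, had 69.5, 114, 25 and 31.8 normalised RPKM in tumor and 19.5, 17.7, 12.9 and 24.1 in blood neutrophils (1.94, SE 0.52, adjusted p = 0.0275 in edgeR). Atp5b had 150, 185, 94 and 88.2 against 61.4, 41, 52.8 and 86 (1.32, SE 0.39, adjusted p = 0.0399 in edgeR). Atp5d, the delta subunit, had 28.1, 38.1, 16.3 and 17 against 10.6, 8.03, 4.1 and 12.8 (1.72, SE 0.53, adjusted p = 0.0466 in edgeR).

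All tumor libraries lay above all blood libraries in these 3 genes, by a narrow margin in Atp5a1 and Atp5b. Replicates 1 and 2 of the tumor neutrophils were the highest in each, and they were also the libraries with the most epithelial markers (834 and 471). Replicate 1 had summed neutrophil markers of 9707, against 63558 to 91106 in the other tumor and 130693 to 167225 in the blood libraries, and the respiratory chain genes took 0.248% of its nuclear counts, against 0.0813% to 0.0923% in the other tumor libraries. The part of these values in the result was not tested. The 3 calls were lost without any 1 of the 4 blood libraries or without tumor neutrophil replicate 1 (adjusted p of 0.0584 to 0.135 in edgeR). The count was then 0 without blood replicate 2, 3 or 4, 1 without blood replicate 1 or tumor replicate 1, and 9 without tumor replicate 2 (7 higher and 2 lower).

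The fourth gene was Cox4i2, the form of subunit 4 of complex IV known from lung and for its induction at low oxygen. It had 1.85, 8.24, 10.5 and 6.6 normalised RPKM in tumor neutrophils and 0.77, 0, 0 and 0.499 in those from blood (fitted log2 fold change 4.44, SE 1.10, adjusted p = 0.0188 in edgeR), with 16.3 to 71.1 counts in tumor and at most 5.685 in blood libraries. In tumor monocytes it had 0, 0.258, 0 and 0, a group with at most 2.693 counts per library, and it was the single gene of the chain that edgeR called between tumor neutrophils and tumor monocytes (higher in neutrophils, adjusted p = 0.0147; DESeq2 called 4 genes). All tumor neutrophil libraries lay above all libraries of both groups. Among the tumor neutrophils Cox4i2 was lowest in replicate 1, the library with the most epithelial markers, and it had 1.17, 0, 0.0526 and 0.627 in tumor and 0, 0.256, 0 and 0 in healthy epithelial cells. Summed smooth muscle and pericyte markers, a list that stood at 142 to 598 in the stromal cells of healthy colon, were 16, 134, 43.6 and 50.9 in tumor neutrophils and 33.3 to 41.6 in their blood counterparts. Fibroblast markers were 10.3, 52.5, 13.2 and 28.6 against 2.54 to 7.14, and endothelial markers 24.2, 4.68, 22.4 and 16.1 against 4.94 to 10.6. The part of these cells in the result was not tested. The call against blood was lost without blood replicate 2, 3 or 4 (adjusted p of 0.0525 to 0.0581 in edgeR), and that against tumor monocytes without tumor monocyte replicate 1, 3 or 4 (0.0503 to 0.0618).

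Stromal cells were the other population with Cox4i2, at 7.23, 1.75, 1.22 and 5.2 normalised RPKM in healthy and 0.571, 0.981, 6.92 and 1.31 in tumor stromal cells. As a share of Cox4i1 and Cox4i2 together, Cox4i2 was 3.78%, 11.6%, 24.7% and 18.9% in tumor neutrophils, 5.14% to 30.3% in healthy stromal cells and 0.902% to 19% in tumor stromal cells, and at most 2.4% in every library of the other 7 groups. In the comparison of healthy epithelial with stromal cells it was lower in epithelial cells (adjusted p = 0.00422 in edgeR). Cox6b2 took 27% to 75% of the sum of Cox6b1 and Cox6b2 in healthy stromal cells and 5.08% to 11.9% in tumor stromal cells. It was also the single gene lower in tumor than in blood monocytes, with 0.201, 0.369, 0 and 0 against 0.714, 4.13, 5.7 and 2.09 normalised RPKM (-4.32, SE 1.13, adjusted p = 0.0246 in edgeR), with at most 5.97 counts in a tumor monocyte library, a call lost without tumor monocyte replicate 4 or blood monocyte replicate 3. Of the other tissue forms, Cox6a2 was at most 4.67% of the sum with Cox6a1 and Cox8b at most 12.4% of the sum with Cox8a in any library. Cox7a1 took 15.9% to 50.7% of the sum with Cox7a2 in healthy epithelial cells and 94.1% in tumor monocyte replicate 3, and 0% to 42.1% in the other libraries. Cox7b2, under 10 counts throughout, was at most 13.8% of the sum with Cox7b.

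**Figure D4:**
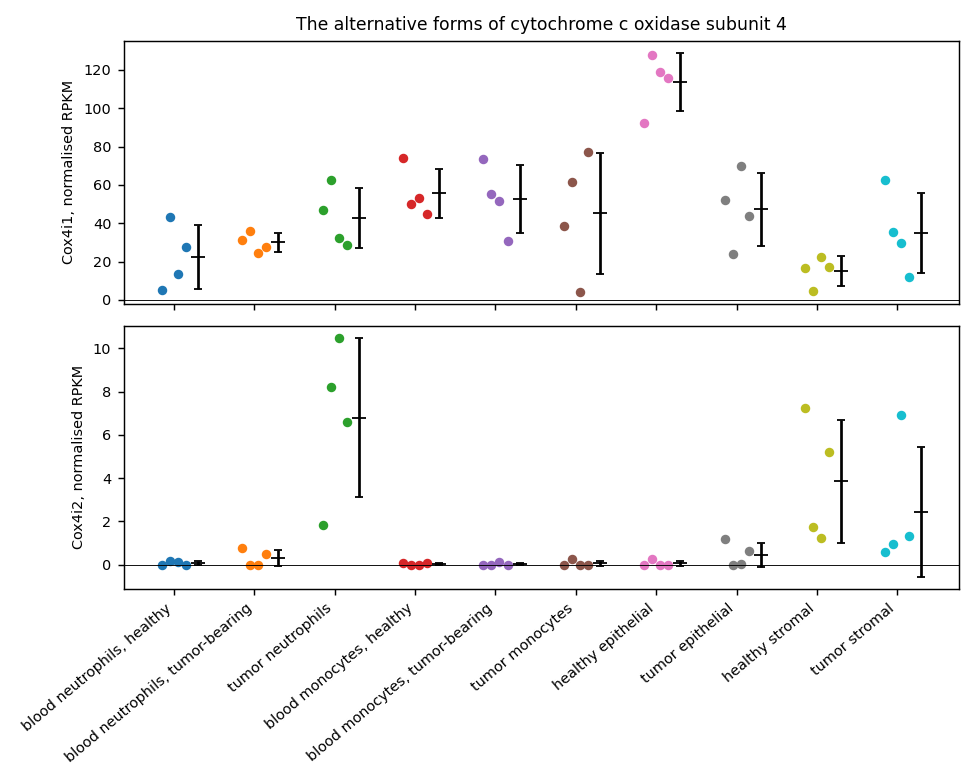
Normalised RPKM of Cox4i1 and Cox4i2 in each library (points) of the 10 groups, with the mean and SD of each group beside the points (n = 4). Cox4i2 stands at 1.85 to 10.5 in tumor neutrophils and 1.22 to 7.23 in healthy stromal cells and at most 0.77 in blood neutrophils of tumor-bearing mice, while Cox4i1 is highest in healthy epithelial cells.

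Few of these genes were called between blood and tumor monocytes, although 55 of the 77 estimates were negative (lower in tumor) and 22 positive. Cox6b2 was the 1 gene of 77 that edgeR called (5 had an unadjusted p under 0.05, and DESeq2 called 4), against 10.9% higher and 6.28% lower among all genes, and the median was -0.34. Between tumor neutrophils and tumor monocytes 1 of 73 genes was higher (Cox4i2) and 0 lower, against 4.74% and 2.97% of all genes. The median was -0.38 (0.06 over all genes), and 51 of the 73 estimates were negative (lower in neutrophils) and 22 positive. In the interaction that set the tumor-against-blood change of neutrophils beside that of monocytes, 0 of 79 genes were called in edgeR (10 at an unadjusted p under 0.05, 7 higher by DESeq2), against 2.73% and 1.26% of all genes, with a median difference of 0.34.

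The subunits encoded in mitochondrial DNA were higher in tumor than in blood neutrophils. Of these 13 genes 13 were called higher, with a median log2 fold change of 4.13, and 13 were higher under each of the 15 alternatives run (medians of 3.46 to 4.60). Their summed level was 22002, 39897, 8848 and 7188 normalised RPKM in tumor neutrophils and 1898, 2370, 1795 and 1129 in those from blood, without overlap, and replicates 1 and 2 were again the highest. For mt-Co1, the catalytic subunit of complex IV, the values were 6117, 10846, 2772 and 2367 against 1073, 1192, 1033 and 536 (2.76, SE 0.59, adjusted p = 0.00968 in edgeR), and for mt-Nd1 of complex I the means were 3279 ± 3192 and 75.2 ± 24.1 (SD, n = 4; 5.67, SE 0.77, adjusted p = 0.00108 in edgeR). The nuclear genes of the same libraries summed to 993, 942, 880 and 751 against 737, 789, 601 and 757. The ratio of mitochondrial to nuclear sums was 9.57 to 42.4 in tumor neutrophils, 1.49 to 3.01 and 0.353 to 2.84 in blood neutrophils of tumor-bearing and healthy mice, and 4.61 to 17.7 over all monocyte libraries. Against tumor monocytes 0 of the 13 genes differed in edgeR (median 0.66). The change from blood to tumor was larger in neutrophils than in monocytes for 10 of 13 genes (interaction, median difference 3.42; 4 to 13 under the 22 alternatives run). The epithelial markers were highest in the same replicates 1 and 2, tumor epithelial cells had mitochondrial sums of 23737 to 66669, and their part in the result was not tested. Isolation also differed between tumor and blood cells (above), and its part was not tested.

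Among the companion lists, beside 12.5% of all genes higher and 5.39% lower, between tumor and blood neutrophils 2 of 29 assembly factors were higher (Cox17, from 7.59 ± 0.769 to 23.8 ± 8.93 normalised RPKM, and Ndufaf7) and 1 was lower (Bcs1l). In the same comparison 3 of 15 citric acid cycle enzymes, 1 of 15 electron carrier genes and 2 of 10 regulators were higher, and 1 regulator (Nrf1) was lower. Between tumor and blood monocytes the coactivator Ppargc1a (3.00, SE 0.88, adjusted p = 0.0391 in edgeR) and Dld were higher, while 10.9% of all genes were. Between tumor and healthy stromal cells 1 of 43 assembly factors was higher and 1 of 16 electron carrier genes lower, against 3.99% higher and 5.56% lower among all genes.

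**Figure D5:**
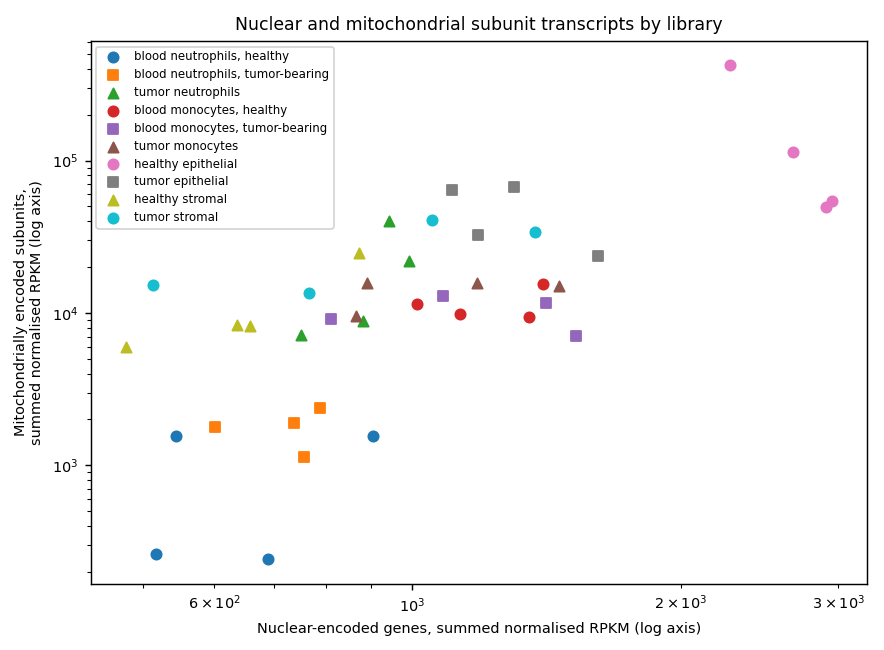
Summed normalised RPKM of the 84 nuclear-encoded genes (horizontal, log axis) and of the 13 mitochondrially encoded subunits (vertical, log axis) in each of the 40 libraries, with color and marker for the group. Blood neutrophils lie at the bottom (243 to 2370), tumor neutrophils stand above them at about the same nuclear sums (7188 to 39897), and the 4 healthy epithelial libraries lie to the right of all others (nuclear sums of 2271 to 2952).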

How the data were processed

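Sorted populations were profiled in 40 libraries, with groups taken from the labels. The authors amplified total RNA with a kit that does not mark strand and mapped reads to mm10 with Bowtie 2 (version not given in the sources used here). The deposited expected counts per gene are fractional (99.6% of nonzero values) and were rounded, which moved a library total by at most 1105. The deposited RPKM were scaled by the authors to totals 2.43 to 5.89 times the counts on genes, so levels are counts per kilobase scaled by TMM on nuclear genes. No column was left unused (0).

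Comparisons used edgeR 4.0.16 (R 4.3.3) with filterByExpr, TMM, quasi-likelihood tests and Benjamini-Hochberg adjustment over all genes tested, with a threshold of 0.05. SE is the log2 fold change divided by the root of the F statistic. Alternatives were limma 3.58.1 (voom, or log2 of RPKM + 1 or + 0.1), DESeq2 1.42.0, RLE factors, no filter, nuclear genes alone, a replicate block, an animal block and single libraries left out. Code was tested on simulated data. Named genes were at most 6 called genes per direction, taken by size of change where a compared group averaged 5 or more, and others were named after their values were seen. Symbols came from GENCODE M21 and promoters from RefSeq. The genes and lists were chosen with earlier results of these data known. Over 60 replicate pairs, squared differences exceeded counting error 21.55 to 856.1 times, and no libraries were merged. Values of 1 gene of the set are not reported here.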

Additional observations from a re-analysis of the deposited data

Results flagged for a closer look

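Within groups of 4 libraries, 8 of 160 levels tested had 1 library far from the other 3 (by Dixon's ratio of the gap to the range, at its 95% critical value), and chance gives about 1 in 20. In blood neutrophils of healthy mice these were Ndufs1 in replicate 1 (4.19 normalised RPKM, others 7.24 to 7.79) and Uqcrfs1 in replicate 2 (6.65, others 2.17 to 2.87). Atp5b stood apart in blood monocytes of healthy mice in replicate 2 (235, others 94.1 to 118) and in healthy epithelial cells in replicate 4 (201, others 436 to 463), the library with the highest mitochondrial share. Cox4i2 stood apart in tumor stromal replicate 3 (6.92, others 0.571 to 1.31). In 3 groups it was above 0 in 1 library alone, blood monocytes of tumor-bearing mice replicate 3 (0.106), tumor monocytes replicate 2 (0.258) and healthy epithelial replicate 2 (0.256), each at under 3 counts. By the interaction term described above, 33 genes had changes that differed between epithelial and stromal cells.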

How the results depend on the processing

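On the deposited RPKM with limma (+ 1, then + 0.1), which changes unit and test together, the counts of called genes were 0 and 0 for tumor against healthy epithelium, 15 and 13 for healthy epithelial against stromal cells, 57 and 56 and 50 and 50 for neutrophils against monocytes of healthy and tumor-bearing mice, 3 and 2 for tumor against blood monocytes, 6 and 5 for tumor neutrophils against monocytes, 1 and 2 for the myeloid and 0 and 0 for the epithelial-stromal interaction. Of the alternatives chosen after the data were seen, limma on RPKM without the healthy epithelial library of highest mitochondrial share gave 21 for epithelium and 11 for its interaction, limma on normalised RPKM gave 4 for tumor neutrophils against monocytes and 1 for the myeloid interaction. Leaving out tumor stromal replicates 1 and 2 gave 0 for stroma and 7 for the interaction. DESeq2 called 10 genes between tumor and blood neutrophils (9 higher, 1 lower), 4 between tumor and blood monocytes, 3 in blood neutrophils, 3 in stroma, 4 between tumor neutrophils and monocytes and 7 in the myeloid interaction. RLE factors and no filter each gave 2 for tumor against blood neutrophils, and voom and no filter each gave 0 for stroma. Single libraries left out gave 0 to 9 for tumor against blood neutrophils, 0 to 1 for tumor against blood monocytes, for blood neutrophils and for tumor neutrophils against monocytes, 0 for stroma, 30 to 44 for epithelium, 24 to 34 and 19 to 29 for neutrophils against monocytes of healthy and tumor-bearing mice, 53 to 60 for healthy epithelial against stromal cells, 0 to 4 for the myeloid and 17 to 39 for the epithelial-stromal interaction (19 of the tumor-bearing neutrophil calls came without monocyte replicate 1, and 30 of the epithelial calls without tumor replicate 1). Beyond the values already described, the cause was not tested. No comparison had every same-number correlation over 0.1 (blood monocytes came nearest, at 0.0839 to 0.251), so the numbers alone were not taken as pairs. With the replicate block the counts were 0 for tumor against blood neutrophils, 0 for tumor against blood monocytes, 0 for stroma, 35 for epithelium, 28 and 23 for neutrophils against monocytes in blood, 52 for healthy epithelial against stromal cells and 1 for tumor neutrophils against monocytes. Numbers in the titles, which may name animals, recur across cell types, and in the last comparison they match replicates 2 to 4. With these as an animal block in voom (added after the data were seen), the counts were 35 and 33 for neutrophils against monocytes in blood, 1 in tumors, 0 for the myeloid and 34 for the epithelial-stromal interaction. Of 680 values of the 35 named calls under alternatives 574 kept their call, 106 lost it and 0 reversed. Low counts limit the small subunits, and 3 genes never reached 10 counts.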
